A study of Mus musculus with 6 samples.

Results

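Retinal ganglion cells are the output neurons of the retina, and their axons form the optic nerve. NMDA, an agonist of ionotropic glutamate receptors, damages them by excitotoxicity, and the loss of their transcripts is a common readout of that damage. A set of 10 genes that mark these cells was followed here across 6 retinal libraries. It holds the RNA-binding protein gene Rbpms, the POU-domain transcription factor genes Pou4f1, Pou4f2 and Pou4f3, the γ-synuclein gene Sncg, the neurofilament subunit genes Nefl, Nefm and Nefh, the surface glycoprotein gene Thy1 and the vesicular glutamate transporter gene Slc17a6. The members were chosen by name, and each was looked up by its gene symbol in the processed files. Of the 10 genes, 9 had a transcript in all 6 files, among 25935 genes for which this held. The gene without one was Pou4f1.

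All libraries came from retina of wild type C57BL/6 mice that had received NMDA in the vitreous (2 μl, 100 mM). After 2 days the NMDA + SCF group (3 libraries) received 2 μl of stem cell factor (SCF, the ligand of the receptor c-kit) at 50 ng/μl. The control group (3 libraries) is labelled NMDA, and the study's methods give it PBS at that time, so it is called NMDA + PBS. The study isolated retinal cells 1 week after that injection and took RNA from the total of them. The labels give an age of 5 weeks, and the methods give 4 weeks at the start. There was no retina without NMDA among the 6 libraries, so the comparison shows the difference that goes with SCF after damage, not the damage. The number of mice behind a library is not stated, and if libraries of a group shared animals the p-values measure technical spread. In RNA of total retinal cells, fewer ganglion cells, a lower recovery of them and less RNA per ganglion cell cannot be told apart.

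Values are FPKM (fragments per kilobase of transcript relative to the total of counted fragments), summed per gene over the transcripts listed in all 6 files. FPKM multiplied by transcript length came back to whole fragments for 98.4 to 98.5% of values in each library, which put the counted fragments between 3404336 and 4440580 per library, or 14.1 to 18.2% of the clean read pairs. The fragments behind low values are given below, and at such depth a value of 0 is only a gene listed at 0. The rows of the files follow 1 of 2 transcript lists. Those of NMDA + PBS replicate 1 and of the 3 NMDA + SCF libraries share list A, and those of NMDA + PBS replicates 2 and 3 share list B. A difference between list B files and the others therefore cannot be told apart from a difference between those 2 control retinas and the rest. Rod photoreceptor markers, which define the bulk of the retina, summed to 2761 to 3779 FPKM in all libraries. Markers of lens summed to 24.2 to 317.9 FPKM in NMDA + PBS and 478.4 to 10347 FPKM in NMDA + SCF, with 9 of the 10 measured lens markers higher at an unadjusted p of at most 0.05 (limma), against 4.33% of all genes, and Bfsp1 at 0 or not listed. Markers of amacrine cells, inhibitory neurons that share the ganglion cell layer and several of its transcripts, summed to 330.4 to 373.5 FPKM in NMDA + PBS and 404.0 to 430.8 FPKM in NMDA + SCF, and the amacrine marker Th was at 0 or not listed. The part of either in the values below was not tested.

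None of the ganglion cell genes passed the test between NMDA + SCF and NMDA + PBS. With the thresholds in the study's methods (at least a 2-fold change with an adjusted p no higher than 0.001), 0 of the 9 genes were called by limma on log2(FPKM + 1), as were 0.0% of all 25202 genes tested. The study itself reported differentially expressed genes at these thresholds, by a test that its methods do not name. The fit here called no gene at all, so its result does not set the 9 genes apart. At an adjusted p of at most 0.05 it was again 0 of 9 and 0.0% of all genes. Before adjustment, 2 of the 9, Nefh and Slc17a6, had p below 0.05, against 9.22% of all genes. Both had lower values in NMDA + SCF, as 4.9% of all genes did at that threshold, and 0 of the 9 had higher ones, where 4.33% of all genes did. The log2 fold change was above 0 for 2 genes (Pou4f3 and Sncg) and below 0 for 7, where 49.1% and 50.9% of all genes lay on these sides. The median over the 9 genes was -0.14, beside -0.01 over all genes. The groups did not overlap for 1 gene, Nefh, which was lower in NMDA + SCF, as in 6.45% of all genes. Fold changes here are on the log2(FPKM + 1) scale, which understates differences of low genes.

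**Figure D1:**
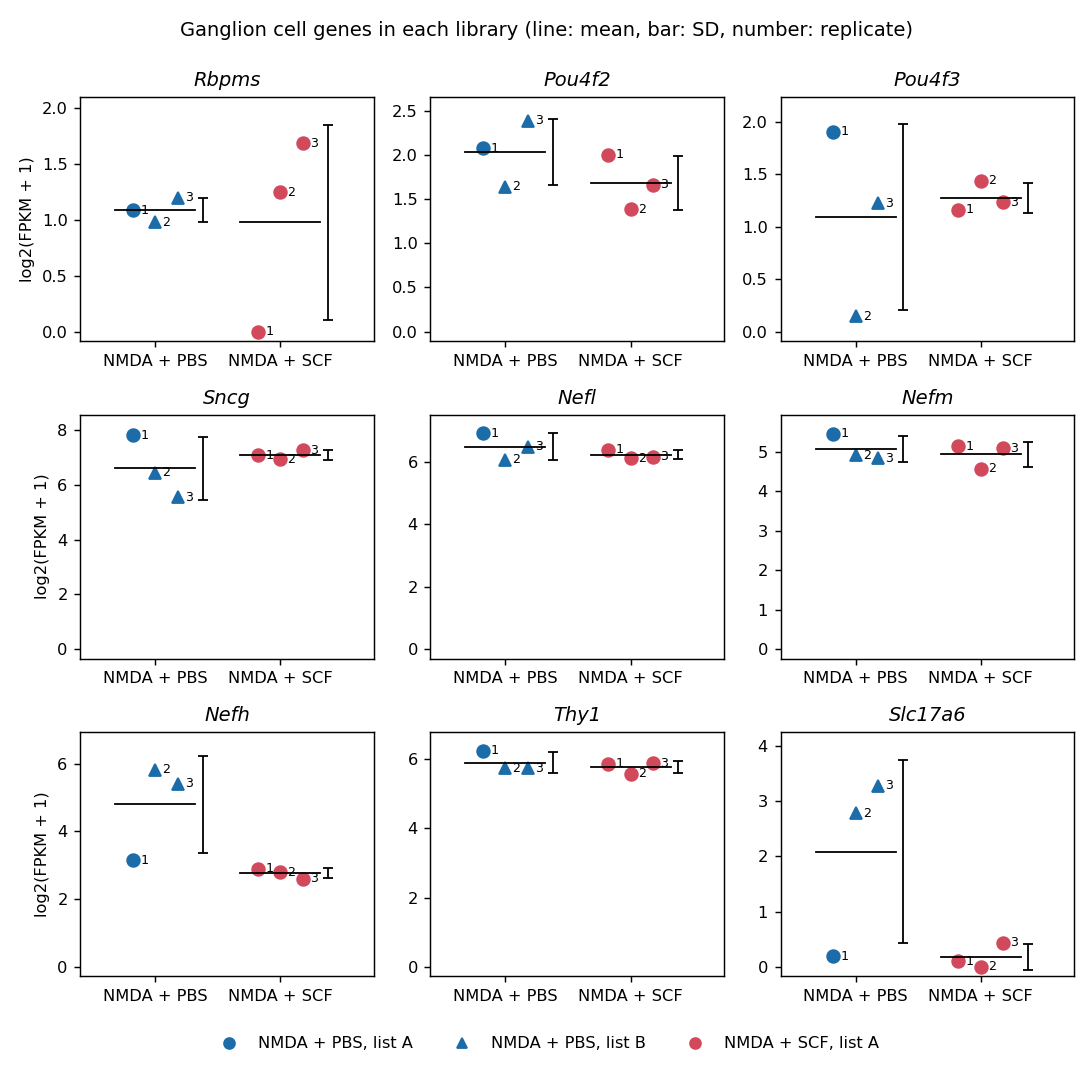
Level of 9 ganglion cell genes in each library, as log2(FPKM + 1) on the vertical axis. Numbers give the replicate, circles are files with transcript list A and triangles files with list B, the line is the mean and the bar the SD (n = 3). Nefh and Slc17a6 are high in NMDA + PBS replicates 2 and 3 alone, and all genes except Nefh overlap between the groups.

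The genes spanned a wide range of levels. In the NMDA + SCF libraries, Sncg was highest (135.3 ± 16.0 FPKM, SD, n = 3), followed by Nefl (73.7 ± 7.76 FPKM), Thy1 (54.1 ± 6.24 FPKM), Nefm (29.9 ± 6.34 FPKM), Nefh (5.80 ± 0.687 FPKM) and Pou4f2 (2.26 ± 0.701 FPKM). The ranges of neighbours in that order did not overlap among these 6 genes. Below them came Pou4f3 (1.43 ± 0.245 FPKM), Rbpms (1.20 ± 1.12 FPKM) and Slc17a6 (0.141 ± 0.187 FPKM), and each of these overlapped with the gene above it. In NMDA + PBS the spread within the group was larger for most genes. Sncg had 117.7 ± 92.8 FPKM, Nefl 90.8 ± 26.9 FPKM and Thy1 59.8 ± 13.0 FPKM, and Nefh (34.9 ± 24.5 FPKM) and Nefm (33.2 ± 8.39 FPKM) overlapped.

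The POU4F (BRN3) factors drive ganglion cell differentiation and survival, and the transcripts of Pou4f2 and Pou4f3 were low in all libraries. Pou4f2, the family member that acts earliest in ganglion cells, lies on chromosome 8 of GRCm38 from 78433010 to 78436645, on the minus strand. Its level was 3.21, 2.12 and 4.22 FPKM in NMDA + PBS and 3.01, 1.61 and 2.17 FPKM in NMDA + SCF, with replicates given in the order 1, 2, 3 here and below. These values rest on 18 to 60 fragments per library, and the groups overlapped. NMDA + SCF differed from NMDA + PBS by a log2 fold change of -0.35 (standard error 0.33, 95% interval -1.13 to 0.44, adjusted p = 0.714, limma), and this interval includes a value 1 log2 unit lower in NMDA + SCF.

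Pou4f3, the third family member, is known also as a factor of inner ear hair cells and lies on chromosome 18 from 42394539 to 42397249, on the plus strand. It had 2.74, 0.107 and 1.34 FPKM in NMDA + PBS and 1.24, 1.70 and 1.35 FPKM in NMDA + SCF. The lowest of these values rests on 1 fragment and the highest on 22, and both are NMDA + PBS libraries, so the SCF values lie inside the control range. Between the groups the log2 fold change was 0.19 (standard error 0.47, 95% interval -0.92 to 1.29, adjusted p = 0.900, limma), and it turned to -0.29 without NMDA + PBS replicate 2.

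Pou4f1, which marks a large share of ganglion cells as the protein BRN3A, could not be compared. Its coding transcript and a non-coding one were listed in the list B files alone, so 4 of the 6 files, all NMDA + SCF libraries among them, hold no row for it. Its absence from a file is therefore not a value of 0.

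RBPMS is an RNA-binding protein that labels ganglion cells as a class. The gene lies on chromosome 8, and of its 15 annotated transcripts (6 coding) 2 were listed in all files, 1 of them coding. Rbpms had 1.12, 0.968 and 1.29 FPKM in NMDA + PBS and 0, 1.37 and 2.21 FPKM in NMDA + SCF. With 0 to 6 fragments per library, the highest and the lowest value both fell in NMDA + SCF. For Rbpms the log2 fold change was -0.11 (standard error 0.46, 95% interval -1.19 to 0.97, adjusted p = 0.947, limma), and without NMDA + SCF replicate 1 it turned to 0.38.

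Neurofilaments are the intermediate filaments of large axons and are built from a light, a medium and a heavy subunit. Nefl, the light subunit (chromosome 14, 68083863 to 68089095, plus strand), had 119.0, 65.5 and 87.9 FPKM in NMDA + PBS and 82.5, 67.8 and 70.7 FPKM in NMDA + SCF. NMDA + PBS held both the highest and the lowest library, and the log2 fold change was -0.26 (standard error 0.24, 95% interval -0.83 to 0.30, adjusted p = 0.706, limma). Nefm, the medium subunit (chromosome 14, 68119283 to 68124846, minus strand, for the transcript with nearly all fragments), had 42.8, 29.2 and 27.5 FPKM in NMDA + PBS and 34.2, 22.7 and 32.9 FPKM in NMDA + SCF. A longer Nefm transcript that spans Nefl on the other strand had at most 4 fragments in a library. The groups overlapped for Nefm too, with a log2 fold change of -0.14 (standard error 0.25, 95% interval -0.72 to 0.44, adjusted p = 0.852, limma), which turned to 0.05 without NMDA + PBS replicate 1 and to 0.04 without NMDA + SCF replicate 2.

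Nefh, the heavy subunit, behaved differently from both. It lies on chromosome 11 from 4938754 to 4948064 on the minus strand, and its only transcript in the annotation was in all 6 files. It had 7.87, 55.5 and 41.4 FPKM in NMDA + PBS and 6.43, 5.90 and 5.07 FPKM in NMDA + SCF. NMDA + PBS replicates 2 and 3 were high, with 881 and 735 fragments, and replicate 1, with 107 fragments, lay next to the NMDA + SCF libraries, with 88, 82 and 70 fragments. Its log2 fold change was -2.03 (standard error 0.64, 95% interval -3.54 to -0.53, unadjusted p = 0.0150, adjusted p = 0.536, limma). Among the 4 libraries of list A, NMDA + PBS replicate 1 was 1.36 times the mean of NMDA + SCF, while the lower of the list B files was 5.27 times the highest of list A.

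The proportions of the subunits show the same split. The ratio of Nefl to Nefm was between 2.14 and 3.19 in the 6 libraries, with the lowest value in NMDA + SCF and the highest in NMDA + PBS. The ratio of Nefh to Nefm was between 0.154 and 0.260 in the 4 list A libraries, and 1.90 and 1.51 in NMDA + PBS replicates 2 and 3. Nefh thus made up 4.64 to 6.12% of the summed FPKM of the 3 subunits in list A files, and 36.9 and 26.4% in the list B files. The ratio of the light to the medium subunit varied without a split by list, and that of the heavy to the medium subunit split by list.

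**Figure D2:**
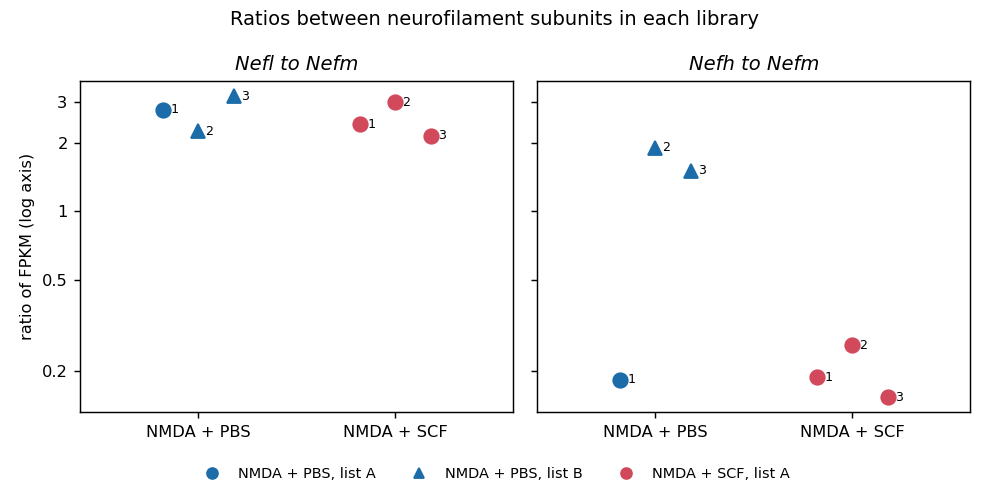
Ratio of Nefl to Nefm (left) and of Nefh to Nefm (right) in FPKM, per library, on a log axis, with circles for list A and triangles for list B. The left ratio lies between 2.14 and 3.19 in all libraries, and the right one is at or below 0.260 in the 4 list A libraries and 1.51 or more in NMDA + PBS replicates 2 and 3.

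Slc17a6 encodes VGLUT2, which loads glutamate into synaptic vesicles and is the transporter ganglion cells use. Its main transcript lies on chromosome 7 from 51622006 to 51671119, on the plus strand. The gene had 0.142, 5.90 and 8.74 FPKM in NMDA + PBS and 0.0706, 0 and 0.353 FPKM in NMDA + SCF. Behind these values are 97 and 160 fragments in control replicates 2 and 3, against 2 in control replicate 1 and 1, 0 and 4 in the NMDA + SCF libraries. The control group thus held 2 libraries in which the gene was well detected and 1 at the level of the NMDA + SCF libraries, with which it overlapped. The log2 fold change was -1.91 (standard error 0.77, 95% interval -3.71 to -0.11, unadjusted p = 0.0404, adjusted p = 0.536, limma). Within list A the difference between NMDA + SCF and control replicate 1 was -0.01 on the log2(FPKM + 1) scale, and no ratio is given, because 3 of the 4 libraries had fewer than 3 fragments.

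Nefh and Slc17a6 changed their call with 1 library. Without NMDA + PBS replicate 1, all remaining controls are list B files and all NMDA + SCF libraries list A files. In that fit both genes passed an adjusted p of 0.05 (0.00337 for Nefh and 0.0162 for Slc17a6, limma), among 849 of 25202 genes that did. The log2 fold change was then -2.85 for Nefh and -2.86 for Slc17a6. It was -1.52 for Nefh and -1.56 for Slc17a6 without control replicate 2, and -1.72 and -1.31 without control replicate 3. With any 1 of the other 5 libraries left out, 0 of the 9 genes had an unadjusted p of at most 0.05 (limma). Between 4.82 and 8.72% of all genes did in those fits. Both list B files were at least 4 times every list A file for 2 of the 9 genes (Nefh and Slc17a6) and for 2.87% of the 14013 genes with a mean of at least 1 FPKM. The reverse held for 0 of the 9 and for 1.2% of those genes. On the log2 scale, the mean of the list B files minus that of the list A files was 2.76 for Nefh and 2.85 for Slc17a6, at percentiles 98.0 and 98.1 of those genes, of which the middle 90% (5th to 95th percentile) lay between -1.10 and 1.44. Sncg lay at the other end with -1.28, at percentile 3.63. Transcripts of 3211 to 4394 bases had on average values 0.17 log2 units higher in list B than in list A files. This class holds the main transcripts of Nefh and Slc17a6. It also holds those of Nefl and Nefm, for which the difference between the lists was -0.13 and -0.19. In the longest class, from 4396 bases, the average difference was 0.32. The part of transcript length in the difference between the lists was not tested. Transcripts with names of a merged assembly, 8.85 to 11.4% of the FPKM sum of a library, carry neither gene nor position, and fragments counted under them are not in these values. Their part in the difference between the lists was not tested.

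**Figure D3:**
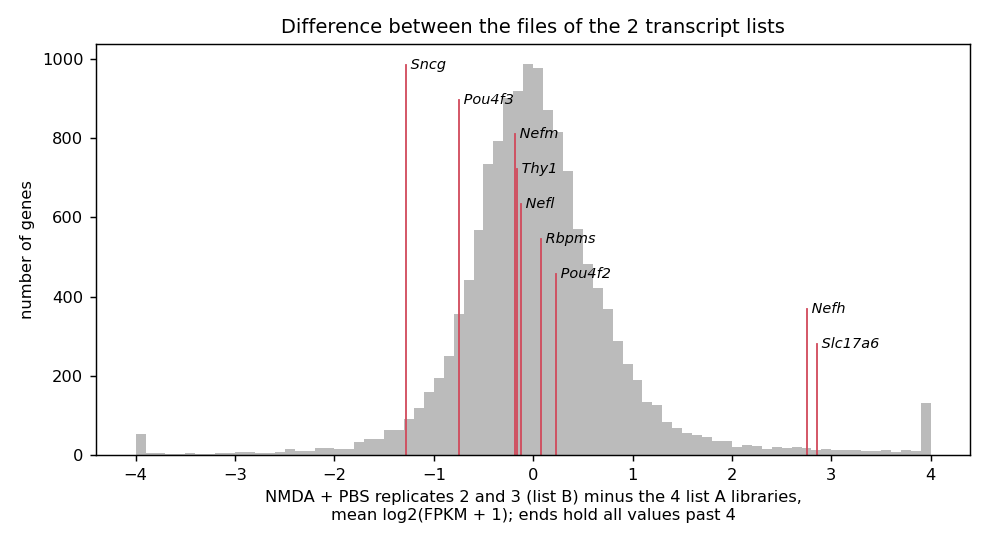
Histogram over 14013 genes of the difference between NMDA + PBS replicates 2 and 3 (list B) and the 4 list A libraries, in mean log2(FPKM + 1), with the 9 ganglion cell genes as lines of arbitrary height. Nefh (2.76) and Slc17a6 (2.85) lie in the upper tail, Sncg (-1.28) in the lower one, and the rest nearer the middle.

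Sncg encodes γ-synuclein, an axonal protein abundant in ganglion cells, and lies on chromosome 14 from 34370274 to 34374789, on the minus strand. It had 222.4, 85.3 and 45.5 FPKM in NMDA + PBS and 133.9, 120.1 and 152.0 FPKM in NMDA + SCF. The NMDA + SCF libraries lay close together, inside a control range that was highest in replicate 1 and lowest in replicate 3. All list A files were above both list B files, the opposite order to Nefh. The log2 fold change was 0.49 (standard error 0.51, 95% interval -0.71 to 1.70, adjusted p = 0.737, limma), and leaving out control replicate 3 made it -0.033, or control replicate 1 made it 1.10. The ratio of Sncg to Nefl was 1.87, 1.30 and 0.517 in NMDA + PBS and 1.62, 1.77 and 2.15 in NMDA + SCF.

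Thy1 encodes a GPI-anchored surface protein long used to label and sort ganglion cells. It lies on chromosome 9 from 44043384 to 44048579, on the plus strand, and had 74.9, 52.4 and 52.2 FPKM in NMDA + PBS and 57.3, 46.9 and 58.1 FPKM in NMDA + SCF. It varied least among the 9 genes in the test (standard error 0.20). The log2 fold change was -0.13 (95% interval -0.61 to 0.35, adjusted p = 0.832, limma), and 0.04 without NMDA + PBS replicate 1. The interval leaves out a change of 1 log2 unit in either direction for these libraries.

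**Figure D4:**
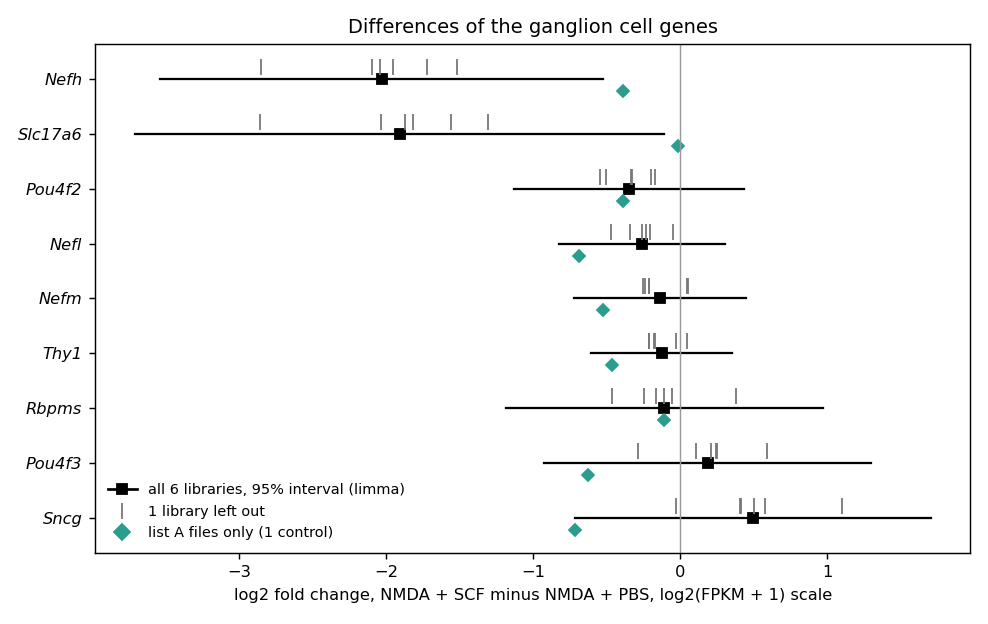
Log2 fold change of 9 ganglion cell genes in NMDA + SCF against NMDA + PBS, on the log2(FPKM + 1) scale, with squares for all 6 libraries and their 95% interval, grey ticks for the fits with 1 library left out, and diamonds for NMDA + SCF minus NMDA + PBS replicate 1, the only control with list A. Only the intervals of Nefh and Slc17a6 exclude 0 before adjustment, and all diamonds are at or below 0.

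Within list A, which has 1 control library and so no test, the same genes stood on one side. NMDA + PBS replicate 1 was above all 3 NMDA + SCF libraries for 7 of the 9 genes (the exceptions were Rbpms and Slc17a6), where this held for 20.1% of the 14013 genes with a mean of at least 1 FPKM. It was below all of them for 0 of the 9, and for 35.1% of those genes. It was the highest of all 6 libraries for 5 of the 9 (Pou4f3, Sncg, Nefl, Nefm and Thy1), against 10.8% of those genes. The median of NMDA + SCF minus NMDA + PBS replicate 1 over the 9 genes was -0.47 log2 units, beside 0.11 over all genes. For Nefl the control library was 1.62 times the NMDA + SCF mean, for Sncg 1.64 times and for Thy1 1.38 times. A wider set of ganglion cell genes held 17 with a mean of at least 1 FPKM. That control was above all NMDA + SCF libraries for 10 of them and below all for 3. For 4 markers of horizontal cells, another class of retinal neuron, these numbers were 3 and 0. They were 0 and 3 for 9 amacrine markers, and 2 and 5 for 8 rod markers. The 9 genes vary together in part (Pearson r = 0.97 for Nefm and Thy1), so 7 of 9 is not 7 separate observations. Lens markers in that control summed to 24.2 FPKM, the lowest of the 6 libraries, and the comparison within list A rests on that 1 library.

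The mean log2(FPKM + 1) over the 9 genes was 3.87, 3.83 and 4.01 in NMDA + PBS and 3.40, 3.34 and 3.56 in NMDA + SCF. The groups did not overlap in this mean, but different genes raised it, Nefh and Slc17a6 in replicates 2 and 3 and Sncg, Nefl, Nefm and Thy1 in replicate 1. Pearson correlations between pairs of the genes over the 6 libraries, which share depth and list, ranged from -0.86 (Sncg and Slc17a6) to 0.97 (Nefm and Thy1). Nefh and Slc17a6 had 0.96, and Nefl had 0.83 with Thy1 and 0.73 with Nefm. Among 14004 other genes with a mean of at least 1 FPKM, the 5 with the profile most like that mean over the 6 libraries were Gm15497 (Pearson r = 0.997), Mir99ahg (0.995), Dixdc1 (0.988), Slitrk3 (0.988) and Mab21l2 (0.985), given as a description.

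A wider panel of 40 genes known from ganglion cells or their subtypes likewise held no gene that passed the test. Of these, 30 could be measured and 17 had a mean of at least 1 FPKM. None was called (0 of 30, with 0.0% of all genes), and 17 had a log2 fold change above 0 and 13 below, with a median of 0.06. Only 1 gene, Stmn2, had an unadjusted p below 0.05 (limma). It was lower in NMDA + SCF, as in 4.9% of all genes. The groups did not overlap for Cartpt, a neuropeptide gene of some direction-selective ganglion cells that was higher in NMDA + SCF, and Ebf1, an early B cell factor gene that was lower, against 7.63% and 6.45% of all genes. Cartpt had 0.592, 0.812 and 0.182 FPKM in NMDA + PBS and 0.942, 1.51 and 1.40 FPKM in NMDA + SCF (log2 fold change 0.59, adjusted p = 0.545, limma). This rests on 2, 4 and 1 fragments against 3, 6 and 5, and the fragments of the groups do overlap. Stmn2, a regulator of microtubules in growing axons, had 0.283, 28.6 and 28.4 FPKM in NMDA + PBS and 0.141, 0.0842 and 0.424 FPKM in NMDA + SCF (log2 fold change -3.10, standard error 1.15, adjusted p = 0.536, limma). It thus had the pattern of Slc17a6, with 238 and 264 fragments in the list B files and 1 to 5 elsewhere.

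Ebf1 had 4.08, 4.37 and 4.48 FPKM in NMDA + PBS and 3.39, 3.20 and 2.66 FPKM in NMDA + SCF (log2 fold change -0.38, adjusted p = 0.626, limma). Here NMDA + PBS replicate 1 lay with the other controls, unlike for Nefh. Eomes, the TBR2 factor of intrinsically photosensitive ganglion cells, had a log2 fold change of -0.35 (adjusted p = 0.695, limma), with 8 to 23 fragments per library. At the other end, Hpca, which encodes the calcium sensor hippocalcin, had 8.16, 5.72 and 2.84 FPKM in NMDA + PBS and 9.91, 11.4 and 7.84 FPKM in NMDA + SCF (log2 fold change 0.78, unadjusted p = 0.0605, adjusted p = 0.538, limma). Prph, the intermediate filament peripherin, had 0.53 on at most 6 fragments. Tubb3, the neuronal β-tubulin, had 96.1, 65.7 and 53.6 FPKM in NMDA + PBS and 107.6, 77.5 and 87.8 FPKM in NMDA + SCF (log2 fold change 0.37, adjusted p = 0.656, limma).

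The study stained calretinin and NeuN in the ganglion cell layer and reported that SCF lessened the loss of cells positive for them. Those are counts of cells in that layer by protein, an unlike measure to the RNA of total retinal cells given here. The genes of both proteins overlapped between the groups. Calb2 (calretinin) had 130.1, 68.4 and 62.3 FPKM in NMDA + PBS and 103.8, 73.5 and 104.7 FPKM in NMDA + SCF (log2 fold change 0.17, 95% interval -0.55 to 0.90, adjusted p = 0.852, limma). Rbfox3 (NeuN) had 1.17, 2.24 and 1.47 FPKM in NMDA + PBS and 1.48, 2.92 and 1.93 FPKM in NMDA + SCF, on 5 to 12 fragments per library (log2 fold change 0.24, 95% interval -0.56 to 1.04, adjusted p = 0.807, limma). Both genes are also expressed in amacrine cells.

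**Figure D5:**
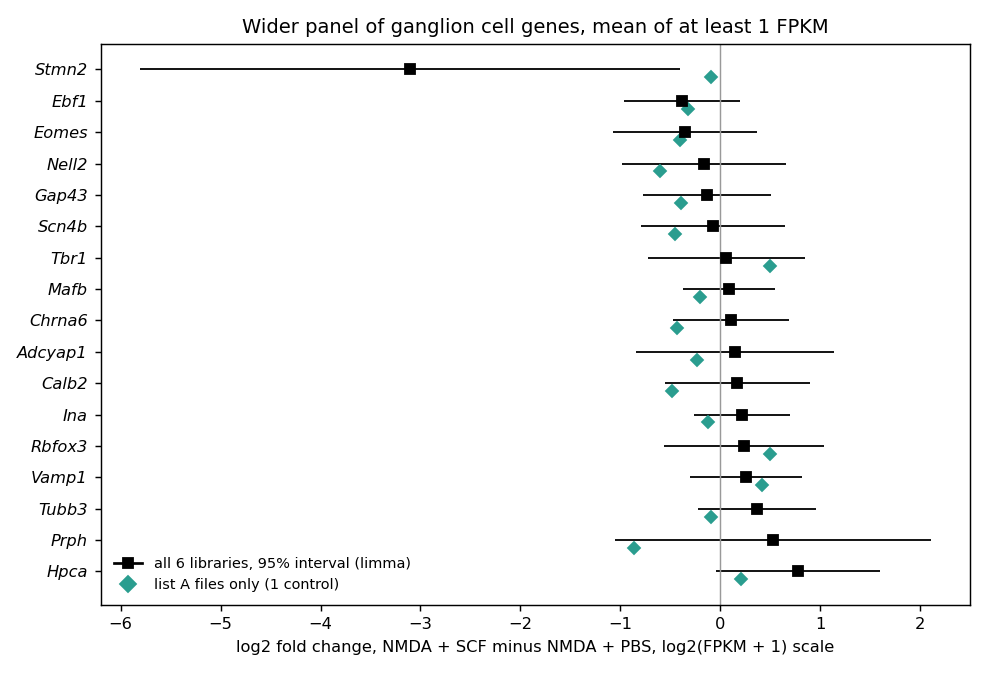
Log2 fold change (NMDA + SCF against NMDA + PBS, log2(FPKM + 1) scale) of the 17 genes of the wider panel with a mean of at least 1 FPKM, with squares and 95% intervals for all 6 libraries and diamonds for list A files alone. Only the interval of Stmn2 (-3.10) excludes 0 before adjustment, and its diamond lies near 0.

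Genes of the cytoskeleton and of axonal transport, which serve long axons in general, numbered 15 and were all measured. The list shares Ina, Prph, Stmn2, Tubb3 and Gap43 with the wider panel, so the lists are not independent. None was called (0 of 15, with 0.0% of all genes), 7 had a log2 fold change above 0 and 8 below, and the median was -0.06. Before adjustment 3 of them, Stmn2, Dpysl2 and Map2, had p below 0.05 (limma), all lower in NMDA + SCF, against 4.9% of all genes. The groups did not overlap for Dpysl2 and Map2, both lower in NMDA + SCF, against 6.45% of all genes. Dpysl2, which encodes the collapsin response mediator CRMP2, had 7.86, 75.2 and 58.2 FPKM in NMDA + PBS and 5.29, 3.56 and 3.97 FPKM in NMDA + SCF (log2 fold change -2.71, standard error 0.75, unadjusted p = 0.00820, adjusted p = 0.536, limma). It split the libraries as Nefh did, with replicate 1 of the controls next to the NMDA + SCF libraries. Map2, a dendritic microtubule-associated protein, had 16.5, 16.8 and 40.8 FPKM in NMDA + PBS and 13.8, 9.22 and 9.94 FPKM in NMDA + SCF (log2 fold change -0.99, adjusted p = 0.536, limma). All controls lay above all NMDA + SCF libraries, replicates 1 and 2 by little and replicate 3 by more. The highest log2 fold change of the list, 0.59, was that of Stmn3, a relative of Stmn2, with 495.7, 244.1 and 195.7 FPKM in NMDA + PBS and 423.4, 431.8 and 447.2 FPKM in NMDA + SCF (adjusted p = 0.586, limma). Stmn3 was lower in both list B files than in every list A file, the order of Sncg.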

How the data were processed

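The authors deposited 1 file of transcript FPKM per library, with no replicates pooled, and a table of sequencing totals. Of that deposited table, the clean reads (44925938 to 48783182 per library) and the percent of bases at Q30 (92.9 to 94.3%) were used and 5 other columns were not. mRNA was enriched with oligo(dT) and sequenced on a HiSeq. The aligner, counter and annotation are not given in the sources used here. The labels name mm9, but 98.2% of 63313 transcripts had their GENCODE M21 position (GRCm38), so coordinates are on GRCm38.

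Gene FPKM is the sum over the 46933 Ensembl transcripts that both lists hold (7529 in list A only, 8966 in list B only), and the genes above 0 were fitted with limma 3.58.1 in R 4.3.3 (log2(FPKM + 1), variance trend, condition only, Benjamini-Hochberg adjustment over all genes). The script was tested on simulated data. Summaries used Python 3.11.15. Fragments were recovered as FPKM times length (whole within 0.05 or the rounding of the file) and cover counting error only. The members and all gene lists were chosen with earlier results of these data known. Named genes are the members, the 3 highest and 3 lowest log2 fold changes of the wider panel and of the axon list among genes with a mean of at least 1 FPKM, Calb2 and Rbfox3, and the 5 genes most correlated with the members' mean. Cartpt was named after its values were seen. Alternatives were a pseudocount of 0.1, a filter at a mean of 1 FPKM, upper quartile and median-of-ratios scaling, all listed transcripts, the transcript list as a term, a replicate block, voom on recovered fragments, no variance trend and each library left out. Added after seeing the data were the comparison within list A and the count of genes at least 4 times higher in list B files.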

Additional observations from a re-analysis of the deposited data

Results flagged for a closer look

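Pou4f1 enters no comparison here, since its transcripts were listed for NMDA + PBS replicates 2 and 3 alone. The coding transcript (chromosome 14 of GRCm38, 104461676 to 104467999, minus strand, 4445 bases) had 2.04 and 3.55 FPKM in these 2 libraries, on 36 and 70 fragments. The non-coding transcript (104463973 to 104465365) had 3.78 and 1.13 FPKM, on 12 and 4 fragments. All of these are above the limit of 3 fragments that a count of 0 allows. The level of Pou4f1 in the other 4 libraries is not known from their files.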

How the results depend on the processing

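No ganglion cell gene, of the 9 or of the wider panel, was called at 2-fold and an adjusted p of 0.001 under any alternative with a test. Over all genes the count was also 0 in each of these fits, apart from 55 without NMDA + PBS replicate 1. The result therefore does not set these genes apart. Of the 9, 1 in place of 2 (Nefh) had an unadjusted p of at most 0.05 with voom on recovered fragments. The same held without the variance trend, and the shares of all genes were 9.99% and 9.31%. With 1 library left out the number was 0 to 3, against 4.82 to 17.5% of all genes. Both the 3 and the 17.5% came without NMDA + PBS replicate 1. In that fit 2 of the 9 and 849 of 25202 genes passed an adjusted p of 0.05 (limma). No gene did with any other library left out. A term for the transcript list leaves control replicate 1 as the only control and gives no test. Its log2 fold changes are those of the comparison within list A, so it adds no separate result. In it 0 of the 9 genes lay above 0, and the share over all genes was not counted. The median of the 9 was -0.47, beside 0.11 over all genes with a mean of at least 1 FPKM. The median of the wider panel was -0.089, Pou4f3 was -0.63 and Sncg -0.72. With 1 library left out, 1 to 4 of the 9 genes lay above 0, against 45.3 to 50.8% of all genes. The median of the 9 was -0.29 to -0.05, that of the wider panel 0.01 to 0.09 and that of all genes -0.03 to 0.01. Over these fits the log2 fold change was -0.46 to 0.38 for Rbpms, -0.29 to 0.59 for Pou4f3, -0.033 to 1.10 for Sncg, -0.25 to 0.055 for Nefm and -0.21 to 0.043 for Thy1, so that their signs turned, and it was -2.85 to -1.52 for Nefh and -2.86 to -1.31 for Slc17a6. The signs turned for Nefm and Thy1 without NMDA + PBS replicate 1, for Pou4f3 without NMDA + PBS replicate 2, for Sncg without NMDA + PBS replicate 3, for Rbpms without NMDA + SCF replicate 1 and for Nefm without NMDA + SCF replicate 2. The cause was not tested. Same-numbered libraries did not deviate together (correlations -0.05, -0.05 and -0.08), and the main fit used no pairing. With 3 libraries per group, such correlations cannot decide whether the libraries were prepared in pairs. A replicate block left 0 of the 9 genes called, beside 0 of all 25202 genes. Nefh and Slc17a6 stayed at an unadjusted p of at most 0.05 (limma), and the number of such genes among all fell from 2324 to 1856. Without NMDA + PBS replicate 1, 55 genes were called at the strict threshold over all genes, and 0 with all libraries. A count model with a quasi-likelihood test was planned and not run, since the files hold FPKM. Depth limits Rbpms, Slc17a6 and Pou4f3 most among the 9, each with at most 1 fragment in at least 1 library. The size of their log2 fold changes depended on the scale. In the main fit they were -0.11, -1.91 and 0.19. With a pseudocount of 0.1 FPKM they were -0.81, -3.57 and 0.68, and with voom -0.72, -4.43 and 0.78.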
